A study of Saccharomyces cerevisiae with 2 samples.

Results

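The 9 mRNAs of the Ccr4-Not complex were followed in RNA-seq read densities of 1 *xrn1*∆ *trf4*∆ and 1 *trf4*∆ culture of *S. cerevisiae*. The members were chosen by identifier and not by their values, and are *CCR4*, *POP2*, *CDC39*, *CDC36*, *NOT3*, *NOT5*, *MOT2*, *CAF40* and *CAF130*. They make 9 of the 9633 transcripts listed and 9 of the 5775 nuclear ORFs. Both strains derive from BY4741, a laboratory haploid of the S288C background, and were grown asynchronously in YPD to exponential phase. The *xrn1*∆ *trf4*∆ strain lacks both Xrn1p, the cytoplasmic 5′–3′ exoribonuclease, and Trf4p, which adds short poly(A) tails to nuclear RNA as part of TRAMP. The *trf4*∆ strain lacks Trf4p and keeps Xrn1p, so the comparison asks how RNA levels differ when Xrn1p is removed from cells that already lack Trf4p. Libraries of WT and *xrn1*∆ were not used here. With 1 library per strain no difference has a replicate check, and no p-value is given.

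Ccr4-Not is the main cytoplasmic deadenylase of yeast. It shortens the poly(A) tail of an mRNA, after which the cap is removed and Xrn1p degrades the body of the transcript from the 5′ end, while the exosome can degrade it from the 3′ end. The complex is built on the large scaffold Not1p, encoded by *CDC39*. Pop2p docks on this scaffold and carries Ccr4p, the more active nuclease of the pair. Not2p (*CDC36*), Not3p and Not5p form a second module, Not4p (*MOT2*) is a ubiquitin ligase, and Caf40p and Caf130p bind further sites on the scaffold. The complex also acts in transcription and in the quality control of translation.

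The values are read densities in normalized reads per nucleotide, which allow mRNAs of different length to be compared. All 9 members, and 99.4% of the ORFs found in the R64 assembly, came out as whole reads when the density was multiplied by their length. On the ORFs 12121664 reads were recovered in *xrn1*∆ *trf4*∆ and 7455598 in *trf4*∆. The deleted genes follow the labels. *TRF4* had 1 read in *xrn1*∆ *trf4*∆ and 0 in *trf4*∆ (a count of 0 allows up to 3 reads, or 0.00171 per nucleotide), and *XRN1* had 111 reads in *xrn1*∆ *trf4*∆ and 7272 in *trf4*∆. The members had between 324 and 8592 reads in *xrn1*∆ *trf4*∆ and between 120 and 4277 in *trf4*∆. Intervals below are exact 95% intervals of these reads (Poisson for a density, Clopper-Pearson for a ratio). They hold only the error of counting, since the spread between cultures was not measured. In RNA from a whole culture, fewer cells that express a gene and less RNA per cell cannot be told apart.

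All 9 members lie in a single exon, and every sequence of 50 nt within them, the length of the reads, occurs once in the R64 genome. With up to 3 mismatches allowed, 5 positions of *CCR4* lost this uniqueness and none of the other 8 members lost any, so few positions of these genes would fail a filter on unique reads. The members are rich in glutamine codons. *POP2* has 63 of 433 codons (14.5%), *CCR4* 61 of 837 (7.29%) and *CDC39* 130 of 2108 (6.17%), against a median of 3.70% over 5632 ORFs, and 8 of the 9 members lie above that median. *CAF130* is the exception, with 2.76%. The longest runs of CAA and CAG codons in the deadenylase genes and the scaffold are shown with 9 nt on each side, since such repeats are where short reads could be misplaced. The capitals mark the run. *POP2* (codons 112 to 126, chrXIV:720261-720323 of R64, minus strand), *CCR4* (codons 15 to 24, chrI:113279-113326, minus strand) and *CDC39* (codons 1035 to 1040, chrIII:283210-283245, plus strand) read as follows.
POP2: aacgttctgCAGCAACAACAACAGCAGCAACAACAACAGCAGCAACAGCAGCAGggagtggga
CCR4: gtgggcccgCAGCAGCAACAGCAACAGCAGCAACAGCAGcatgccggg
CDC39: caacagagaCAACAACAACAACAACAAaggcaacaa
The run of *POP2* mixes 7 CAA with 8 CAG codons and that of *CCR4* 3 CAA with 7 CAG, while that of *CDC39* is 6 CAA codons. A run of at least 10 such codons occurs in 0.906% of ORFs and in 2 of the 9 members. None of the 50-nt sequences that overlap these 3 runs lost its uniqueness with 3 mismatches allowed.

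In *xrn1*∆ *trf4*∆ the 9 densities ranged 4.73-fold, from *CAF40* (1.66) to *CDC36* (0.352), and in *trf4*∆ they ranged 3.94-fold between the same genes (0.820 and 0.208). *CAF40* thus had the highest and *CDC36* the lowest density of the complex in both libraries. The median member had 0.606 reads per nucleotide in *xrn1*∆ *trf4*∆ and 0.413 in *trf4*∆, where the median ORF had 0.480 and 0.249. In each library 6 of the 9 members lay above the median ORF. These are therefore mRNAs of middle to upper abundance. They lay between the 37.1st and 85.4th percentile of ORFs in *xrn1*∆ *trf4*∆ and between the 42.6th and 78.8th in *trf4*∆.

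**Figure D1:**
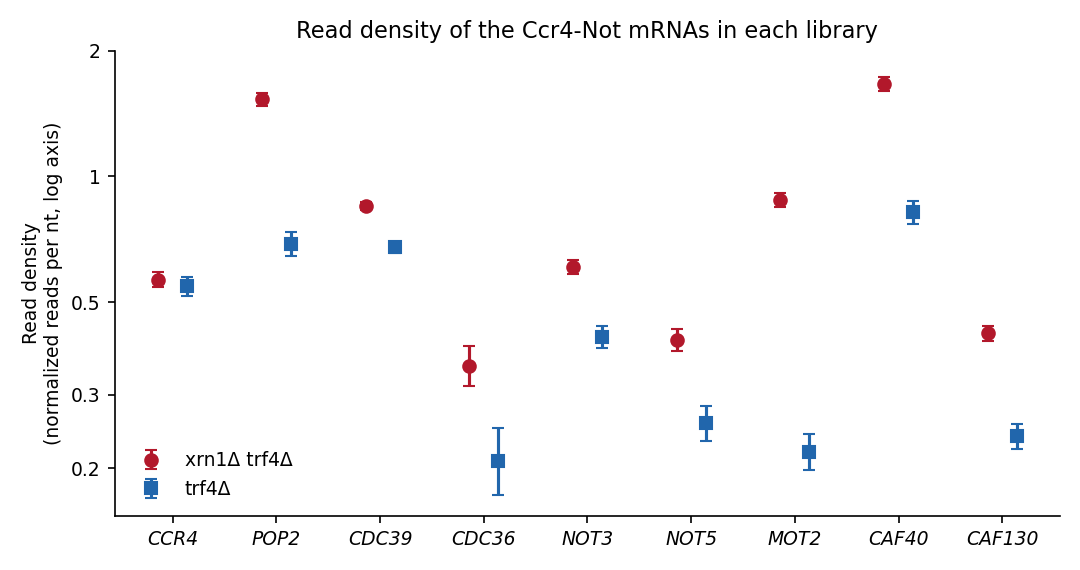
Read density (normalized reads per nucleotide, log axis) of the 9 Ccr4-Not mRNAs in *xrn1*∆ *trf4*∆ (circles) and *trf4*∆ (squares), 1 library each, with exact Poisson 95% intervals of the reads. *CAF40* is highest and *CDC36* lowest in both libraries, *MOT2* lies at 0.878 in *xrn1*∆ *trf4*∆ and 0.219 in *trf4*∆, and the intervals of *CCR4* overlap.

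The order between these ends was not the same in the 2 libraries. In *xrn1*∆ *trf4*∆ it ran *CAF40*, *POP2*, *MOT2*, *CDC39*, *NOT3*, *CCR4*, *CAF130*, *NOT5* and *CDC36*. Of its 8 neighbouring pairs, 2 did not differ beyond counting error, *MOT2* and *CDC39* (density ratio 1.03, interval 0.987 to 1.08) and *CAF130* and *NOT5* (1.04, interval 0.963 to 1.11). In *trf4*∆ the order was *CAF40*, *POP2*, *CDC39*, *CCR4*, *NOT3*, *NOT5*, *CAF130*, *MOT2* and *CDC36*. There 4 of 8 neighbouring pairs did not differ beyond counting error, namely *POP2* with *CDC39* (1.02, interval 0.946 to 1.09) and each step from *NOT5* down to *CDC36*, with ratios of 1.05 to 1.09. *MOT2* moved most in this order, standing with the scaffold in *xrn1*∆ *trf4*∆ and with the least abundant members in *trf4*∆.

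Under the authors' normalization all 9 members had a higher density in *xrn1*∆ *trf4*∆ than in *trf4*∆, but 3 of 9 (*MOT2*, *POP2* and *CAF40*) did with the median ORF density set equal in both libraries (median scaling), 4 of 9 with a trimmed mean of the ORF ratios set to 0 and 8 of 9 with equal ORF sums. Over all 5638 ORFs that had reads in each library, 82.0% were higher under the authors' normalization and 42.4% with median scaling. The share of ORFs was not counted for the trimmed mean or for equal ORF sums. The trimmed mean adds -0.78 to every log2 ratio, close to minus the ORF median, above which 4 of 9 members and 2819 of 5638 ORFs lay. Equal ORF sums add -0.08 to the authors' normalization, under which 82.0% of ORFs were higher. These member counts are therefore not read as a result about the members. The log2 ratio between the libraries (*xrn1*∆ *trf4*∆ over *trf4*∆) had a median of 0.76 over the 9 members, a 1.69-fold higher density, and 0.78 over all ORFs, a 1.72-fold higher density. The difference between these medians, -0.03, is the same under any scaling of the libraries. Its summed density was 7.28 reads per nucleotide in *xrn1*∆ *trf4*∆ and 4.06 in *trf4*∆, a 1.79-fold higher sum. A log2 ratio of at least 1 was found in 3 members and in 40.1% of ORFs, and a log2 ratio of -1 or below in 0 members and in 2.63% of ORFs. With median scaling 1 member (*MOT2*) reached 1 (7.45% of ORFs) and 0 members reached -1 (16.2% of ORFs). The counting interval of the single gene lay above 0 in 8 members, against 75.5% of the 5517 ORFs that had more than 3 reads in both libraries. That interval lay above the ORF median in 3 members (*POP2*, *MOT2* and *CAF40*; 39.1% of ORFs) and below it in 3 (*CCR4*, *CDC39* and *NOT3*; 40.5% of ORFs). The members are too few for these shares to be told apart from those of ORFs in general. Within the complex the log2 ratios spread from 0.05 to 2.0, and 7 of the 9 lay between the quartiles of all ORFs (0.20 and 1.34). The remaining pair was *CCR4*, below this range, and *MOT2*, above it.

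**Figure D2:**
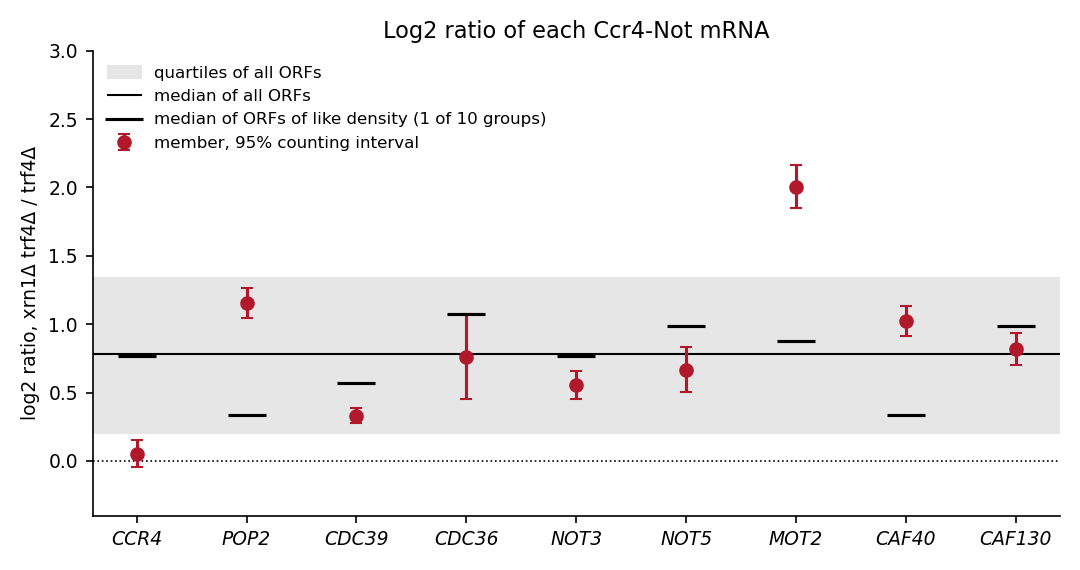
Log2 ratio of read density, *xrn1*∆ *trf4*∆ over *trf4*∆, for each Ccr4-Not mRNA, with the exact 95% counting interval (circles and bars), the median (line, 0.78) and quartiles (grey band, 0.20 to 1.34) of all 5638 ORFs, and the median of ORFs of like density (short bars). *MOT2* (2.0) lies above and *CCR4* (0.05) below the band under the authors' normalization, and median scaling adds -0.94 to every gene.

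The deadenylase genes differed from each other. *POP2* (YNR052C, chromosome XIV of R64, 719346 to 720647), the nuclease that links Ccr4p to the scaffold, had 3183 reads and a density of 1.53 in *xrn1*∆ *trf4*∆, against 896 reads and 0.688 in *trf4*∆. *CCR4* (YAL021C, chromosome I, 110846 to 113359), the main catalytic subunit, had 2272 reads and a density of 0.566 in *xrn1*∆ *trf4*∆, against 1372 reads and 0.546 in *trf4*∆. Under the authors' normalization the *POP2* density was thus 2.22-fold higher in *xrn1*∆ *trf4*∆, and that of *CCR4* 1.04-fold higher. The log2 ratio of *POP2* was 1.15 (interval 1.05 to 1.26) and that of *CCR4* 0.05 (-0.04 to 0.15). With median scaling they were 0.21 for *POP2* and -0.89 for *CCR4*, and with the trimmed mean 0.37 and -0.73. For *CCR4* this is the lowest ratio of the complex, at the 19.6th percentile of all ORFs, and 4532 ORFs had a higher one. The density of *CCR4* relative to *POP2* was 0.370 in *xrn1*∆ *trf4*∆ and 0.793 in *trf4*∆. This within-library ratio does not depend on the scale between the libraries, and its log2 change was -1.10 (exact conditional interval -1.25 to -0.96).

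The scaffold gene *CDC39* (YCR093W, chromosome III, 280117 to 286443) is the longest member, with 6327 nt, and holds the most reads. It had 8592 reads and a density of 0.850 in *xrn1*∆ *trf4*∆, against 4277 reads and 0.676 in *trf4*∆. Its log2 ratio of 0.33 (interval 0.28 to 0.38) was the second lowest of the complex, and its interval lies below the ORF median. Relative to the median density of the other 8 members, *CDC39* stood at 1.45 in *xrn1*∆ *trf4*∆ and 2.02 in *trf4*∆, a log2 change of -0.48.

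The genes of the NOT module had log2 ratios close to each other, as did some pairs that reach outside the module. *NOT3* (YIL038C, chromosome IX, 280142 to 282652) had a density of 0.606 in *xrn1*∆ *trf4*∆ and 0.413 in *trf4*∆, from 2431 and 1036 reads. *NOT5* (YPR072W, chromosome XVI, 690107 to 691789), a close relative of *NOT3* whose product senses slow codons at the ribosome, had 0.406 in *xrn1*∆ *trf4*∆ and 0.256 in *trf4*∆, from 1092 and 431 reads. *CDC36* (YDL165W, chromosome IV, 164290 to 164865), which encodes Not2p and is the shortest member with 576 nt, had 0.352 in *xrn1*∆ *trf4*∆ and 0.208 in *trf4*∆, from 324 and 120 reads. Their log2 ratios were 0.56 (0.45 to 0.66), 0.67 (0.50 to 0.83) and 0.76 (0.45 to 1.07), in the same order, and the 3 intervals overlap. *NOT3* was the more abundant of the related pair in both libraries, 1.49 times *NOT5* in *xrn1*∆ *trf4*∆ and 1.61 times in *trf4*∆. The log2 change of this ratio was -0.11 with an interval of -0.31 to 0.08, which holds 0. Against *CAF130*, outside the module, the interval also held 0 for *CDC36* (-0.06, interval -0.39 to 0.28) and *NOT5* (-0.15, interval -0.35 to 0.05). It excluded 0 for *NOT3* over *CAF130* (-0.26, interval -0.42 to -0.10).

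*MOT2* (YER068W, chromosome V, 293050 to 294813), the gene of the ubiquitin ligase Not4p, stood apart from the other members. It had 2474 reads and a density of 0.878 in *xrn1*∆ *trf4*∆, against 386 reads and 0.219 in *trf4*∆. This 4.01-fold higher density corresponds to a log2 ratio of 2.0 (interval 1.85 to 2.16), at the 93.7th percentile of ORFs, and 356 ORFs had a higher one. *MOT2* was the single member more than 1 log2 unit from the ORF median, a distance exceeded by 23.1% of ORFs, 10.8% above and 12.3% below. With median scaling the log2 ratio of *MOT2* was 1.06. In density *MOT2* was 1.03 times the scaffold gene *CDC39* in *xrn1*∆ *trf4*∆ and 0.324 times in *trf4*∆, a log2 change of 1.67 (1.51 to 1.84). It gave 12.1% of the summed density of the complex in *xrn1*∆ *trf4*∆ and 5.38% in *trf4*∆, whereas *CCR4* gave 7.78% and 13.4%. Without *MOT2* the median log2 ratio of the remaining 8 members was 0.71.

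The subunits outside the NOT module also differed in level. *CAF40* (YNL288W, chromosome XIV, 90303 to 91424), a conserved subunit that binds partner proteins, had a density of 1.66 in *xrn1*∆ *trf4*∆ and 0.820 in *trf4*∆, from 2983 and 920 reads. *CAF130* (YGR134W, chromosome VII, 757770 to 761138), a large subunit, had 0.421 in *xrn1*∆ *trf4*∆ and 0.239 in *trf4*∆, from 2264 and 804 reads. *CAF40* exceeded *CAF130* 3.96-fold in *xrn1*∆ *trf4*∆ and 3.44-fold in *trf4*∆. The log2 ratio was 1.02 (0.91 to 1.13) for *CAF40* and 0.82 (0.70 to 0.94) for *CAF130*, and the log2 change of their density ratio was 0.20, with an interval of 0.04 to 0.36 that excludes 0. *CAF40* and *POP2* had the highest densities of the complex in both libraries. In *trf4*∆, however, *POP2* did not differ from *CDC39* beyond counting error (1.02, interval 0.946 to 1.09). The ratio of *POP2* over *CAF40* changed by a log2 of 0.13, with an interval of -0.02 to 0.28 that holds 0. Over all 36 pairs of members, the interval of the change in their density ratio excluded 0 in 29 and held it in 7. Of these 7 pairs, 4 include *CDC36*, the member with fewest reads. The share was not counted for pairs of other ORFs, so the count of 29 has no background. The pairs also reuse the same members, and the intervals hold counting error only. Whether the members differ from each other more than other ORFs do was therefore not tested.

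The groups of more abundant ORFs had lower median log2 ratios around the levels of the members, so each member was also set beside ORFs of like density, in 10 groups by mean log2 density. Read this way 5 of the 9 members lay between the quartiles of their group, where 7 lay between the quartiles of all ORFs. By definition, about as many ORFs of a group lie between its quartiles as outside them, so this is not particular to the members. *POP2* and *CAF40*, in a group with a median of 0.33, stood at the 85.2nd and 81.1st percentile of that group. *MOT2* stood at the 94.4th percentile of its own group (median 0.88) and *CCR4* at the 14.5th (median 0.77). The other 5 members lay between the quartiles of their groups, from the 30.9th percentile for *NOT5* to the 40.5th for *CAF130*.

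**Figure D3:**
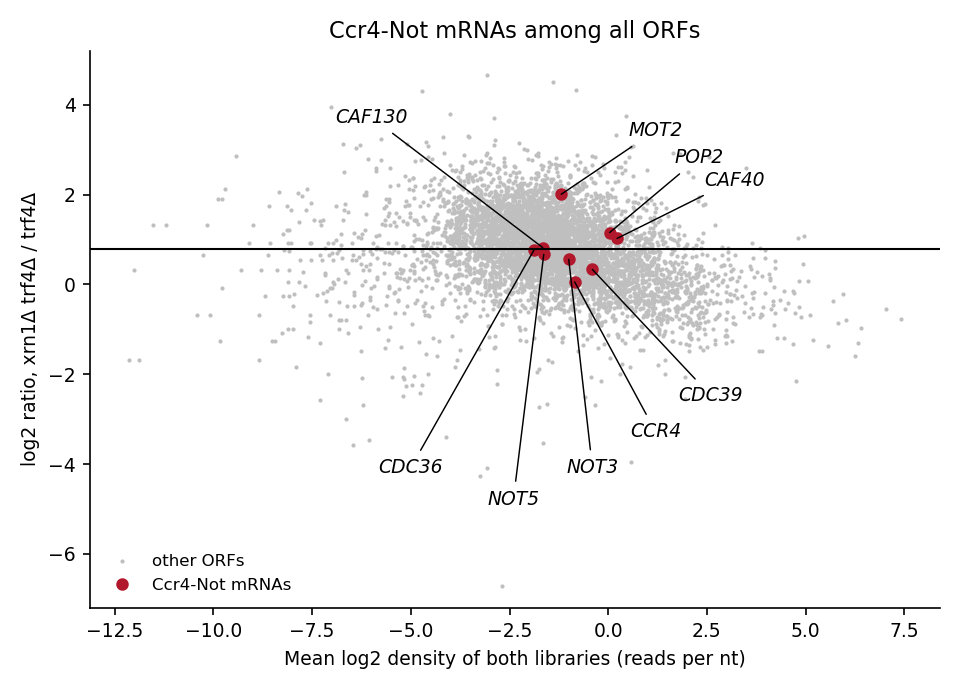
Log2 ratio of read density, *xrn1*∆ *trf4*∆ over *trf4*∆, against the mean log2 density of both libraries, for the 9 Ccr4-Not mRNAs (large points) and the other ORFs (small points), with the ORF median of 0.78 as a line. Most members fall in the middle of the cloud, with *MOT2* in its upper part at 2.0 (93.7th percentile of ORFs) and *CCR4* at 0.05.

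The pattern of 3 members was compared with that of all ORFs by the distance in log2 density over the 2 libraries. Nearest to *MOT2* were *ARG56*, an arginine synthesis gene, at a distance of 0.024, YPR071W at 0.035 and *PSR1* at 0.049. *ARG56* had a density of 0.882 in *xrn1*∆ *trf4*∆ and 0.215 in *trf4*∆. Nearest to *CCR4* were *RSC8* (0.007), a chromatin remodeller subunit, *YAR1* (0.012) and *KTR2* (0.050), and nearest to *CDC39* were *TIM8* (0.022), *YPQ2* (0.025) and *RIO2* (0.039). The distances rest on 2 libraries and are given as a description.

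Since the use of strand in counting is not stated, the ORFs beside each member were examined. Of the 18 nearest listed ORFs, 0 overlap a member, the gaps run from 121 to 1566 nt, and 13 lie on the same strand as the member. *MOT2* lies between *RGI1*, 498 nt upstream, and *ARG56*, 596 nt downstream, both on its own strand. *RGI1*, a gene of respiratory growth, had 0.950 reads per nucleotide in *xrn1*∆ *trf4*∆ and 0.270 in *trf4*∆, from 737 and 131 reads. The log2 ratios along the chromosome were 1.82 (interval 1.55 to 2.10) for *RGI1*, 2.0 for *MOT2* and 2.03 (1.91 to 2.16) for *ARG56*, so the 3 consecutive genes differed between the libraries by the same amount within counting error. Whether reads of one transcript run into the next was not tested. Elsewhere a member and its neighbours could lie far apart. *POP2*, at 1.15, lies beside *NOG2*, a ribosome assembly GTPase, at -1.33 and *BRE5* at 0.096. *CAF40*, at 1.02, lies between the G1 cyclin gene *PCL1* at 3.76 and *SEC21* at 0.26. The value of each neighbour, that of *NOG2* among them, covers its whole gene span. Reads from an intron, or from an RNA encoded in it, were not separated from those of the exons. *CCR4*, at 0.05, has *FUN26* at 0.67 and *ATS1* at 0.75 on either side, both on its strand, and the interval of *CCR4* lies below those of both. Of the 18 neighbours, 4 lay more than 1 log2 unit above the ORF median (10.8% of ORFs), namely *RGI1*, *ARG56*, *PCL1* and YPR071W, the ORF upstream of *NOT5* (2.05). Another 3 lay more than 1 below it (12.3% of ORFs), namely *NOG2* and the genes on both sides of *NOT3*, *TED1* at -0.55 and *PRM2* at -1.0. *PRM2* had 8 reads in *xrn1*∆ *trf4*∆ and 10 in *trf4*∆, and its interval of -2.54 to 0.50 holds 0.

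**Figure D4:**
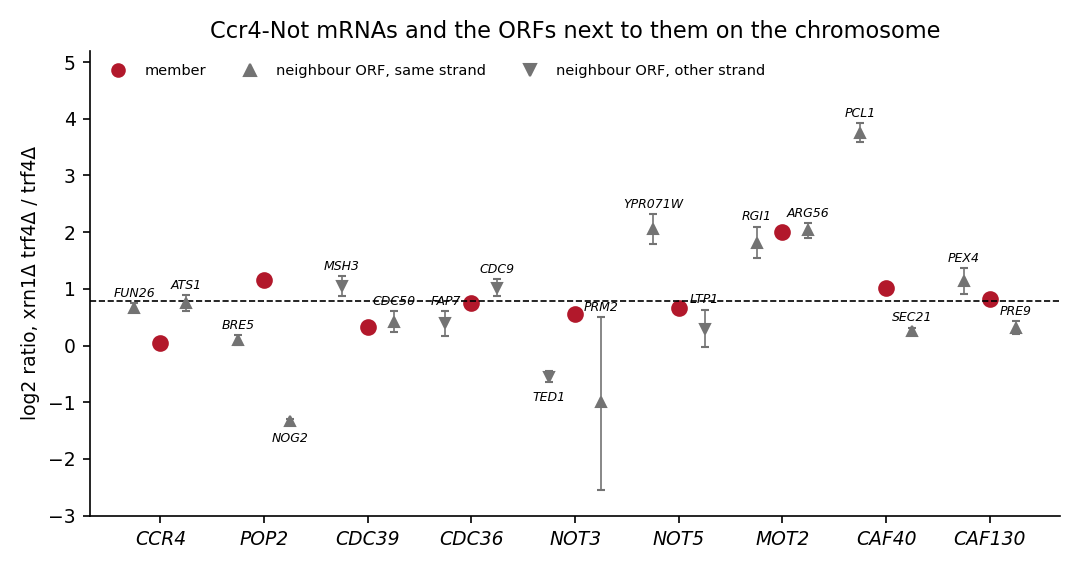
Log2 ratio of read density, *xrn1*∆ *trf4*∆ over *trf4*∆, for each Ccr4-Not mRNA (circles) and the nearest ORFs on its left and right by chromosome position (triangles, pointing up on the same strand and down on the other), with 95% counting intervals on the neighbours and the ORF median as a dashed line. *MOT2* and both of its neighbours lie between 1.82 and 2.03, while *NOG2* beside *POP2* lies at -1.33 over its whole gene span.

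Yeast PUF proteins bind short motifs after the stop codon and recruit Ccr4-Not, in part through Pop2p. Their motifs were searched in the 200 nt after the stop codon of each member, on the coding strand, as TGTANATA (Puf3p), TGTANANTA (Puf4p) and, for Puf5p (encoded by *MPT5*), the Puf4p letters with 1 more N after TGTAN. A match of one motif may overlap a match of another. At least 1 motif was found after 4 of the 9 members and after 26.9% of 5632 ORFs. The Puf4p letters occur in 2 members (7.42% of ORFs), the Puf5p letters in 2 (6.62%) and the Puf3p letters in 0 (14.8%). The sites are shown because they stand in both deadenylase genes and the scaffold gene, with the motif in capitals and 8 nt on each side. They begin 36 nt (*CCR4*, chrI:110794-110818, minus strand), 74 nt (*POP2*, chrXIV:719255-719280, minus strand), 57 nt (*CDC39*, chrIII:286492-286516, plus strand) and 187 nt (*CAF40*, chrXIV:91603-91628, plus strand) after the stop codon.
CCR4, Puf4p motif: ctcctctcTGTACACTAcctcatta
CDC39, Puf4p motif: atataactTGTATAATActatattt
POP2, Puf5p motif: attggacaTGTAGTAATAcagattgg
CAF40, Puf5p motif: ggttcttcTGTACTATTActattacc
The genes with Puf4p letters, *CCR4* and *CDC39*, had the lowest log2 ratios of the complex (0.05 and 0.33), and those with Puf5p letters, *POP2* and *CAF40*, the highest after *MOT2* (1.15 and 1.02). These matches were set beside the ratios after the values were known, over 4 genes, and no binding was measured. The ratios of other ORFs with the same letters were not examined, so no relation between letters and ratio is shown.

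A list of 24 genes of deadenylation or related to the complex was examined in the same way. It holds genes of the other deadenylase, nucleases related to *CCR4*, proteins reported to associate with the complex, partners of Not4p, RNA-binding proteins and *PAB1* with *PBP1*. Several of the RNA-binding proteins recruit Ccr4-Not, and not every gene listed is a partner of the complex. Under the authors' normalization 20 of the 24 were higher in *xrn1*∆ *trf4*∆ (82.0% of ORFs), and 6 of 24 with median scaling (42.4% of ORFs). Their median log2 ratio was 0.58 under the authors' normalization, against 0.78 over all ORFs. The other deadenylase, Pan2-Pan3, trims tails before Ccr4-Not. Its catalytic gene *PAN2* had 0.299 reads per nucleotide in *xrn1*∆ *trf4*∆ and 0.254 in *trf4*∆, with a log2 ratio of 0.23 (0.11 to 0.35). Its partner *PAN3* had 0.298 in *xrn1*∆ *trf4*∆ and 0.145 in *trf4*∆, with a log2 ratio of 1.04 (0.86 to 1.24). The nucleases related to *CCR4* ran from *NGL3* (0.78) to *NGL1* (1.32), and the associated proteins from *CAF16* (0.48) to the kinase gene *DBF2* (1.21).

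Among the partners of Not4p, the ubiquitin-conjugating enzyme genes *UBC4* and *UBC5* had log2 ratios of 0.43 and 0.55. *EGD1* and *EGD2*, the subunits of the nascent chain complex that Not4p modifies, were lower in *xrn1*∆ *trf4*∆, at -0.17 and -0.38, and *BTT1*, a minor form of *EGD1*, had the highest ratio of this group at 1.04. *EGD2* had 3.88 reads per nucleotide in *xrn1*∆ *trf4*∆ and 5.03 in *trf4*∆. All 9 members, *MOT2* among them, lay above 0 under the authors' normalization, as did 82.0% of ORFs. The contrast with *EGD1* and *EGD2* is therefore not particular to *MOT2*, and a link between the ligase and its substrates was not tested. Among RNA-binding proteins the highest ratio was that of *VTS1*, at 2.07 (1.92 to 2.21), close to *MOT2*, with 1.22 reads per nucleotide in *xrn1*∆ *trf4*∆ and 0.291 in *trf4*∆, and the lowest that of *PUF6*, at -0.05. *MPT5*, whose product binds Pop2p, had 0.91, and *PUF4* had 0.03. The other PUF genes listed were *PUF2* at 1.34, *PUF3* at 0.76 and *JSN1* at 0.64. *PAB1*, the poly(A)-binding protein gene, had 2.74 reads per nucleotide in *xrn1*∆ *trf4*∆ and 6.19 in *trf4*∆, a log2 ratio of -1.17 (-1.22 to -1.13), and its partner *PBP1* had 0.04.

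The steps that follow deadenylation were described by a further list. All 29 genes of decapping, the core exosome and the Ski proteins were higher under the authors' normalization, against 82.0% of ORFs, and 14 of 29 with median scaling, against 42.4% of ORFs. Their median log2 ratio was 0.91 under the authors' normalization. The decapping genes had a median of 0.95 over 15 genes, from *SCD6* (0.22) to *EDC1* (4.33), a decapping enhancer with 2.55 reads per nucleotide in *xrn1*∆ *trf4*∆ and 0.127 in *trf4*∆. *DHH1*, the helicase that binds the Not1p scaffold and activates decapping, had 5.02 reads per nucleotide in *xrn1*∆ *trf4*∆ and 2.01 in *trf4*∆, with a log2 ratio of 1.32 (1.26 to 1.38). It was 5.90 times as abundant per nucleotide as *CDC39* in *xrn1*∆ *trf4*∆ and 2.97 times in *trf4*∆. The 10 core exosome genes had a median of 0.86, from *RRP4* (0.07) to *MTR3* (1.35), and the 4 Ski genes a median of 0.66, from *SKI3* (0.15) to *SKI7* (1.02). The median of Ccr4-Not, at 0.76, lay between those of the exosome and the Ski genes. No difference between these lists was tested, since genes of 1 library pair are not replicates.

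**Figure D5:**
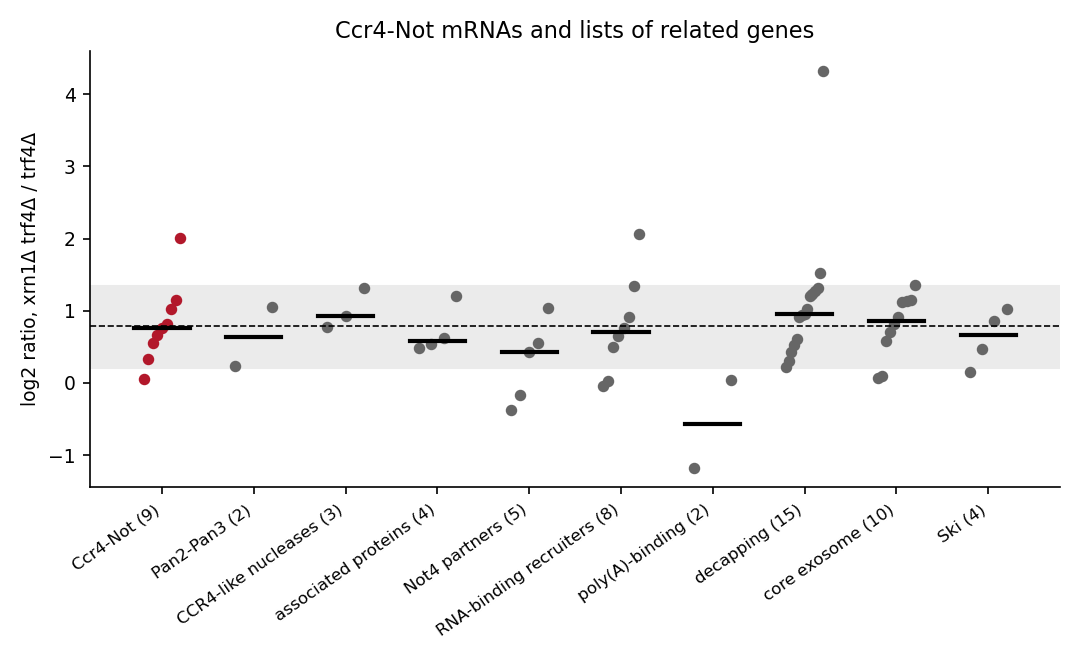
Log2 ratio of read density, *xrn1*∆ *trf4*∆ over *trf4*∆, for each gene (points) of Ccr4-Not and of 9 lists of related genes, with list medians (short bars), the median (dashed line) and quartiles (grey band) of all ORFs, under the authors' normalization. The numbers in brackets are genes per list. List medians run from -0.57 (*PAB1* and *PBP1*) to 0.95 (decapping), with Ccr4-Not at 0.76, and median scaling adds -0.94 to every value.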

How the data were processed

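RNA-seq data of 1 *xrn1*∆ *trf4*∆ and 1 *trf4*∆ culture were used. The authors removed rRNA from total RNA, read 50 nt per fragment by SOLiD sequencing, aligned the reads with Bowtie 0.12.7 (3 mismatches allowed) and kept uniquely placed reads. The deposited values are a coverage signal, reads per nucleotide normalized by the authors on total ORF reads. The genome release and the use of strand are not given in the sources used here. The table holds 0 further sample columns. Names, lengths, coordinates and sequences come from RefSeq R64, and symbols were matched by systematic name. Density multiplied by length was whole, within 0.01, in *trf4*∆, and a multiple of 0.626 in *xrn1*∆ *trf4*∆. Log2 ratios carry no pseudocount. A gene with 3 reads or fewer in a library has no interval. Uniqueness with mismatches was counted with bwa 0.7.19. Functions were tested on simulated data. Intervals came from SciPy 1.17.1, tables from pandas 2.3.3 and NumPy 2.4.6, sequences from Biopython 1.88 and plots from matplotlib 3.10.9, under Python 3.11.15.

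Members were chosen by identifier and not by their values. Earlier results of these data were known when members, gene lists and alternatives were chosen. Genes named were all members, PAN2, PAN3, DHH1, the deleted genes, the highest and lowest of each list, genes more than 1 log2 unit from the ORF median, direct neighbours, and the 3 ORFs nearest in pattern to *CDC39*, *MOT2* and *CCR4*. *UBC4*, *UBC5*, *EGD1*, *MPT5*, *PUF4*, *PUF2*, *PUF3* and *JSN1* were added after their values were seen. The alternatives tried were 3 other scalings (median ORF density, a mean with 30% trimmed from each end, equal ORF sums), a pseudocount (0.01 or 0.1), a filter on mean density (0.05) and other summaries of the members. Protein sequences were not used here.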

Additional observations from a re-analysis of the deposited data

How the results depend on the processing

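The directions of most members rest on the scale between the libraries, which adds one amount to every log2 ratio (-0.94 with the median ORF density set equal, -0.78 with the trimmed mean, -0.08 with equal ORF sums). With the median ORF density the median of the members was -0.19 and 3 of 9 were higher, with *CDC39* at -0.61, *CDC36* at -0.19, *NOT3* at -0.39, *NOT5* at -0.28 and *CAF130* at -0.13. With the trimmed mean the median was -0.026 and 4 of 9 were higher, with *CDC39* at -0.45, *CDC36* at -0.026, *NOT3* at -0.23 and *NOT5* at -0.12. Both set a typical ORF near 0 by construction, and the share of higher ORFs was not counted for the trimmed mean. A pseudocount of 0.1 moved the change of *CDC39* over the median of the other members to -0.37, since it shrinks the ratios of low genes. The median without *MOT2* (0.71) was added after the data were seen. *CCR4* was at -0.03 with equal ORF sums, within its counting interval, which holds 0. *MOT2* was above 0 and the *CCR4* over *POP2* ratio was lower in *xrn1*∆ *trf4*∆ under every alternative run for each. For the ratio these were the pseudocounts of 0.01 and 0.1 alone. For *MOT2* the largest scaling shift, -0.94, is smaller than its log2 ratio of 2.0. These alternatives could not reverse either direction, so they are no check of it. No paired analysis was possible because each strain has 1 library. Depth limits *CDC36* most, with 324 and 120 reads in *xrn1*∆ *trf4*∆ and *trf4*∆.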
